A study of Mus musculus with 128 samples.

Results

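Livers of mice that drank fructose with their chow were compared at 12 h and at 3 h after food was given. The comparison rests on 19 liver RNA-seq libraries, and the study holds 109 others. They are 9 libraries at 12 h (4 BALB/c and 5 C57BL6/J) and 10 at 3 h (5 BALB/c and 5 C57BL6/J), chosen by drink and time from the sample labels. A further 10 fructose libraries at 6 h, 5 of each strain, were placed between them. All animals were wild-type males of 8 weeks that had learned over 1 week to eat between 7 pm and 10 pm. On the day itself they had been without food for 21 h and without water since 4 pm. Chow with 10% of its calories from fat and 64.5% from carbohydrate was then given at 7 pm together with water holding 20% fructose. The 3 h livers were thus taken at 10 pm and the 12 h livers at 7 am. Time since the start of the meal and time of day cannot be told apart in this design, and the labels do not say whether food was left in the cage after 10 pm on that day. The labels do not state outright that each library is a separate mouse, so the spread behind each p-value is that between libraries and may in part be technical.

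Fructose taken up by the liver is phosphorylated by fructokinase (Khk) and then split. Triokinase (Dak in the deposited table) phosphorylates a product of the split, and the resulting triose phosphates feed glycolysis, glycogen and fat. Sugar phosphates activate the transcription factor ChREBP (Mlxipl with its partner Mlx), while insulin after a meal acts through SREBP-1c (Srebf1) to raise fat synthesis and keeps FoxO1 from switching on fasting genes. A meal also loads the endoplasmic reticulum (ER) with secretory and membrane protein, and the unfolded protein response adjusts its chaperones. The liver clock, in which Arntl and its partner drive the Per and Cry repressors, is set by feeding time, and genes of the heat shock and cold-inducible groups follow body temperature over the day.

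The 29 fructose libraries held 19041094 to 35642447 counts each. Hepatocyte markers, among them albumin, summed to 68190 to 111186 CPM (counts scaled to the library's size) at 12 h and 66423 to 138173 CPM at 3 h, so the labelled tissue held its defining transcripts at both times. On a scale built from the water libraries alone, where 0 is the unfed 0 h level and 1 the 3 h level of the strain, 9 of the 10 fructose 3 h libraries lay at 0.634 to 0.857, and BALB/c replicate 4 at 0.452. Of the 6 h libraries, 9 lay above 0.75 and BALB/c replicate 4 at 0.416, while the 12 h libraries lay at 0.198 to 0.443. One of the unfed libraries that set this scale, C57BL6/J replicate 2, itself lay at 0.986. Results are given with all libraries and, where the value rests on it, without BALB/c 3 h replicate 4. In bulk tissue, fewer cells of a type and less RNA per cell cannot be told apart.

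At 12 h, 2505 of 15380 genes tested were higher and 2253 lower than at 3 h (edgeR quasi-likelihood test with strain as covariate, Benjamini-Hochberg adjusted p under 0.05). Together they made up 30.9% of the genes tested, 16.3% higher and 14.6% lower. The counts of list members called at 12 h against 3 h, given below, are to be read against these shares. Changes of at least 2-fold were seen for 585 genes higher (3.8%) and 546 lower (3.55%). Without BALB/c 3 h replicate 4 the test called 4830 of 15360 genes (31.4%), and the 4487 genes called both times had the same direction. Within the 21 libraries whose names carry no letter a, which was treated as a batch, 3692 genes were called. All 12 h libraries lay above all 3 h libraries for 249 genes (1.62%) and below them for 236 genes (1.53%), or for 340 (2.21%) and 381 (2.48%) without BALB/c 3 h replicate 4. The median log2 fold change over all genes tested was 0.01.

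The 6 h livers were nearer to 3 h than to 12 h. From 3 h to 6 h, 933 genes changed (6.07% of those tested), 503 higher (3.27%) and 430 lower (2.8%). Leaving out BALB/c 3 h replicate 4 gave 1059 (6.89%). Between 12 h and 6 h, 3913 genes differed (25.4%), 2012 higher (13.1%) and 1901 lower (12.4%) at 12 h, and 4035 (26.3%) without that library. On a scale with 0 at the 3 h mean and 1 at the 12 h mean of the strain, over 4432 genes called between those times with the 6 h libraries left out, the 6 h libraries averaged 0.256 ± 0.156 in BALB/c and 0.244 ± 0.0939 in C57BL6/J (SD, n = 5 each). They ranged over 0.0874 to 0.493 in BALB/c and 0.163 to 0.404 in C57BL6/J. The highest BALB/c place, 0.493, was that of replicate 4. Over the genes higher at 12 h the 6 h mean was 0.316 in BALB/c and 0.337 in C57BL6/J. Over the genes lower at 12 h it was 0.191 in BALB/c and 0.149 in C57BL6/J, a difference that was not tested. The 6 h medians were 0.338 in BALB/c and 0.320 in C57BL6/J over the higher genes. Over the lower genes they were 0.102 in BALB/c and 0.112 in C57BL6/J. Without BALB/c 3 h replicate 4 the mean places were 0.300 in BALB/c and 0.247 in C57BL6/J, and the highest BALB/c 6 h place was 0.568, past the midpoint.

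**Figure D1:**
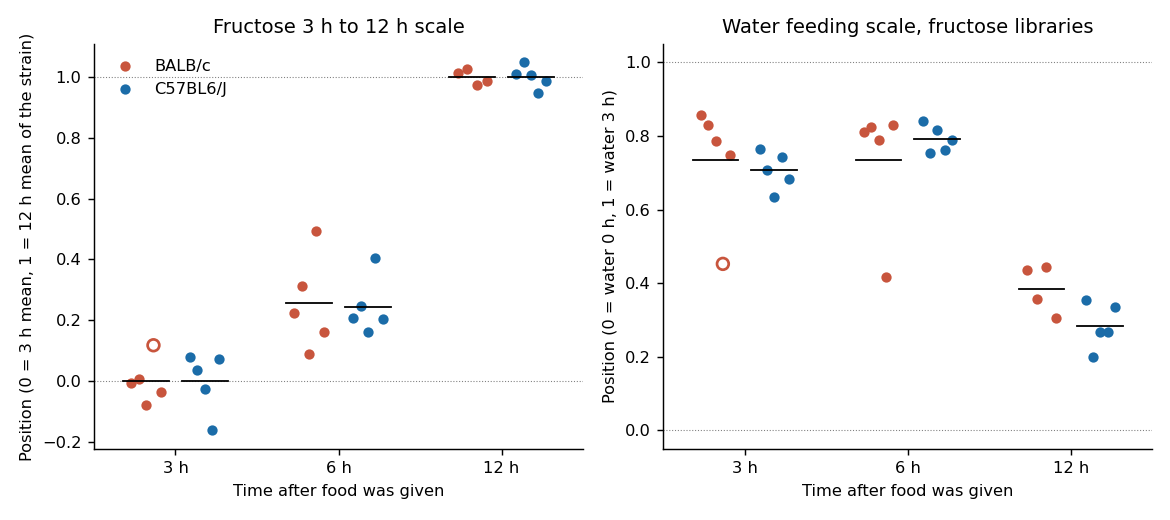
Place of each fructose library by strain and time. Left, position between the 3 h mean (0) and the 12 h mean (1) of its strain over 4432 genes, where the 3 h and 12 h points lie near 0 and 1 because they chose the genes; right, position on the feeding scale of the water libraries (0 = unfed, 1 = 3 h on water). Points are libraries, bars are means and the open circle is BALB/c 3 h replicate 4. The 6 h libraries lie at 0.0874 to 0.493 on the left, and the 12 h libraries at 0.198 to 0.443 on the right, below all 3 h libraries and all 6 h libraries but BALB/c replicate 4 at 6 h.

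Single genes differed in when they moved. Of the 585 genes at least 2-fold higher at 12 h, 344 stood between 0.25 and 0.75 of the way at 6 h, and the median place was 0.397. Of the 546 genes at least 2-fold lower, 201 were above their 3 h level at 6 h, and the median place was 0.119. Of those 546, 52 belonged to the skeletal muscle marker list. That list had a median log2 fold change of 0.81 at 6 h against 3 h, with 0 of 73 called. How many of the 201 were muscle markers was not counted. A direct test of 6 h against the midpoint of 3 h and 12 h called 1627 genes (10.6%), 906 above the midpoint (5.89%) and 721 below it (4.69%), and 1673 genes (10.9%) without BALB/c 3 h replicate 4. Among those at least 2-fold from the midpoint, 273 were above (1.78%) and 24 below (0.156%). Of those 273, 53 belonged to the skeletal muscle marker list, and 209 to none of the lists of other cells and tissues.

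Clock genes separated the times. Of 18 genes of the core loop, 10 fell and 5 rose by 12 h, with a median log2 fold change of -0.57 against 0.01 over all genes, and the same counts held without BALB/c 3 h replicate 4. The repressors Per1, Per2, Per3, Cry1 and Cry2, and Bhlhe40, Bhlhe41, Ciart and Csnk1e, were among those that fell. The activators Arntl and Npas2, with Nr1d1 and Rora, were among those that rose, and Clock, Nr1d2 and Csnk1d did not pass the test. Per2 (chr1:91415982-91459324), which with its relatives represses its own activators, lay at 5.52 to 14.8 CPM (median 9.52) in the 12 h libraries, against 96.8 to 379 CPM (median 155) in the 3 h libraries. The groups did not overlap, and the log2 fold change was -4.28 ± 0.30 (adjusted p = 2.1e-11), -4.27 without BALB/c 3 h replicate 4. At 6 h Per2 was still at 37.4 to 213 CPM (median 129), and was above the midpoint by 1.70 ± 0.22 (adjusted p = 1.2e-05).

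Per3 (chr4:151003652-151044665) followed the same course, with 1.5 to 3.6 CPM (median 2.32) in the 12 h libraries, against 11.5 to 61.1 CPM (median 26.7) in the 3 h libraries, again without overlap, and a log2 fold change of -3.62 ± 0.24 (adjusted p = 3.5e-12). Per1, which also responds to glucocorticoids and fasting, lay at 4.22 to 33.6 CPM (median 25.7) in the 12 h libraries, against 33.7 to 123 CPM (median 69.8) in the 3 h libraries, a change of -1.69 ± 0.27 (adjusted p = 2.1e-05). The libraries of Per1 did not overlap between the times either.

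Arntl, whose product BMAL1 is the partner of CLOCK, was higher, at 28.3 to 37.4 CPM (median 32.3) in the 12 h libraries, against 12.1 to 30.8 CPM (median 16.7) in the 3 h libraries. Its libraries overlapped in part, and the change was 0.91 ± 0.13 (adjusted p = 3.0e-06). Nr1d1, the repressor REV-ERB alpha, was at 6.55 to 31.9 CPM (median 11.2) in the 12 h libraries, against 1.88 to 8.61 CPM (median 3.92) in the 3 h libraries, a change of 1.81 ± 0.32 (adjusted p = 6.4e-05). At 6 h it was lower still, at 0.798 to 3.05 CPM (median 2.14), and was below the midpoint (log2 -1.93 ± 0.29, adjusted p = 0.00011). Its relative Nr1d2 had medians of 34.5, 16 and 27.7 CPM at 3, 6 and 12 h. Its 12 h and 3 h levels gave no call (-0.23 ± 0.26, adjusted p = 0.55), while 6 h was lower than 3 h (-1.24 ± 0.26, adjusted p = 0.0035).

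Most genes that the clock drives were lower too. Of 12 genes in the list of PAR bZIP factors and clock outputs, 8 were lower (Dbp, Tef, Hlf, Usp2, Wee1, Nampt, Pnpla3 and Tspan4) and 2 higher (Nfil3 and Avpr1a) at 12 h, with a median of -1.42. Dbp, a PAR bZIP activator under direct clock control, lay at 0.49 to 1.55 CPM (median 0.65) in the 12 h libraries, against 1.43 to 10.5 CPM (median 2.19) in the 3 h libraries, a change of -2.25 ± 0.33 (adjusted p = 4.6e-06). Tef, of the same family, had a median of 46.4 CPM at 12 h and 154 CPM at 3 h, with no overlap of its libraries and a change of -1.73 ± 0.15 (adjusted p = 5.8e-10). Usp2, a rhythmic deubiquitinase, lay at 1.41 to 7.83 CPM (median 3.56) in the 12 h libraries, against 14.8 to 48.9 CPM (median 36.9) in the 3 h libraries, a change of -3.25 ± 0.22 (adjusted p = 3.5e-12). Nampt, the rate-limiting enzyme of NAD salvage, lay at 31.4 to 56.8 CPM (median 40.1) in the 12 h libraries, against 63.7 to 154 CPM (median 109.8) in the 3 h libraries, a change of -1.42 ± 0.13 (adjusted p = 5.7e-10), and was already lower at 6 h (-0.65 ± 0.12, adjusted p = 0.0011). Outside the list, Ccrn4l, which encodes the rhythmic protein nocturnin, was among the 8 genes named for the largest falls, at 5.36 to 13.5 CPM (median 8.72) in the 12 h libraries, against 45.8 to 193 CPM (median 70.4) in the 3 h libraries, a change of -3.36 ± 0.35 (adjusted p = 2.5e-08). For Dbp the libraries overlapped, and for Tef, Usp2, Nampt and Ccrn4l they did not.

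The RefSeq promoter of Per3 is shown because it was the promoter of this group with a repeated clock-output motif. The window spans the 250 bases before and 50 after the annotated start in GRCm38.p6, chr4:151044616-151044915, minus strand, and the capitals mark matches to the D-box (TTATGTAA or TTACGTAA, both strands searched), the letters that PAR bZIP factors and Nfil3 bind.
Per3: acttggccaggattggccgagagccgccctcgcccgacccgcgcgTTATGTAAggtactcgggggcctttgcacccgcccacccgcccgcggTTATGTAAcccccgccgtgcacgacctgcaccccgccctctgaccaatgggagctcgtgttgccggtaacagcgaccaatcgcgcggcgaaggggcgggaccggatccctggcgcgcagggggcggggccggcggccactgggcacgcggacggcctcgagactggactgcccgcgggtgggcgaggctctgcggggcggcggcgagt
It held 2 D-boxes. A gene counted as holding a motif if any of its promoters did. The D-box was in 1 of 13 core loop genes that could be matched, a list that holds Per3. It was in 0 of 11 genes of the clock output list and in 100 of 10772 tested genes with a promoter (0.928%). Among called genes it was in 18 of 1659 lower at 12 h (1.08%) and 14 of 1834 higher (0.763%). The E-box CACGTG, the letters bound by BMAL1 with CLOCK, was in 4 of those 13 core loop genes and in 1216 of the 10772 tested genes (11.3%). Among called genes it was in 201 of 1659 lower at 12 h (12.1%) and 230 of 1834 higher (12.5%). A match is a description of letters and not evidence of binding.

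Genes that fold protein in the ER fell together by 12 h. Of 23 members of the unfolded protein response and folding list, 19 were lower and 0 higher, with a median log2 fold change of -1.21, and without BALB/c 3 h replicate 4 the count was 20 lower. Canx, Pdia3, Pdia6 and Derl1 did not pass the test. Creld2 (chr15:88819646-88826681), an ER-resident isomerase and a strong target of ATF6, lay at 11.1 to 24.5 CPM (median 21.4) in the 12 h libraries, against 24.9 to 441 CPM (median 294) in the 3 h libraries. Its lowest 3 h value belonged to BALB/c replicate 4, the groups did not overlap, and the change was -3.89 ± 0.36 (adjusted p = 3.9e-09), -4.05 without that library. At 6 h it was still at a median of 256 CPM, above the midpoint by 1.68 ± 0.26 (adjusted p = 0.00017).

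Hspa5 (chr2:34771970-34776531) encodes BiP, the main ER chaperone. It lay at 262 to 439 CPM (median 319) in the 12 h libraries, against 357 to 2812 CPM (median 2106) in the 3 h libraries, and without BALB/c 3 h replicate 4 the groups no longer overlapped. The change was -2.57 ± 0.27 (adjusted p = 1.7e-08) with that library and -2.71 without it. Syvn1, the ubiquitin ligase of ER-associated degradation, lay at 42 to 101 CPM (median 49.1) in the 12 h libraries, against 81.8 to 1503 CPM (median 536) in the 3 h libraries, a change of -3.46 ± 0.35 (adjusted p = 1.1e-08), and was already lower at 6 h (-1.15 ± 0.31, adjusted p = 0.021). The groups overlapped through 1 library of each time, C57BL6/J replicate 4 with the highest value at 12 h and BALB/c replicate 4 with the lowest at 3 h. Manf, a secreted ER stress protein, lay at 33.3 to 75.4 CPM (median 54.5) in the 12 h libraries, against 80.9 to 487 CPM (median 381) in the 3 h libraries, a change of -2.68 ± 0.25 (adjusted p = 2.7e-09), with no call between 6 h and 3 h (-0.075 ± 0.23, adjusted p = 0.9). At 6 h 12 of the 23 members were above the midpoint of 3 h and 12 h and 0 below.

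The promoters of 3 of these genes are shown because the letters that ER stress factors bind were frequent in the list. Capitals mark the ER stress element, which is CCAAT and CCACG with 9 bases of any kind between them, in either direction, and which NF-Y and ATF6 bind. The windows, in GRCm38.p6, are chr15:88819396-88819695 (plus strand), chr2:34771840-34772139 (plus strand) and chr19:6046326-6046625 (plus strand).
Creld2: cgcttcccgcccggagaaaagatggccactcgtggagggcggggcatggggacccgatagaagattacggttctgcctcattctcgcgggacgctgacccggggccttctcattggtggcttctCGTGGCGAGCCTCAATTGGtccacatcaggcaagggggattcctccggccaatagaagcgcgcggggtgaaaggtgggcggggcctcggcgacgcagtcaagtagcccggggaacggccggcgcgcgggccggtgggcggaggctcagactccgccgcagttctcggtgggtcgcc
Hspa5: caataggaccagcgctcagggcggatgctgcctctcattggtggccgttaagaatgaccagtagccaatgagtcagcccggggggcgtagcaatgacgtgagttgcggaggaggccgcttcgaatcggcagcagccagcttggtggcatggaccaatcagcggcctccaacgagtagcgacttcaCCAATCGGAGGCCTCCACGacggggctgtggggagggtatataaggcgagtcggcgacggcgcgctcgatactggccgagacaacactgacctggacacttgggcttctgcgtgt
Syvn1: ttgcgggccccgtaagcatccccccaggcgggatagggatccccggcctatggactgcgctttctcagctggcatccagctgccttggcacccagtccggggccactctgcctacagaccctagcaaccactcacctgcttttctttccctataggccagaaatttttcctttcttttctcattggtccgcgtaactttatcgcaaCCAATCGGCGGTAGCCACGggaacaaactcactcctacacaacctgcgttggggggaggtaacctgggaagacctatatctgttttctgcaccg
The element was found in 9 of the 19 list members with a RefSeq promoter (47.4%) and in 19 of 10772 tested genes with a promoter (0.176%). A gene counted if any of its promoters held the element. Among tested genes it was in a promoter of 9 of 1659 genes lower at 12 h (0.542%) and of 0 of 1834 genes higher. Counted per window rather than per gene, 39 of the 32851 windows searched held it (0.119%). In Creld2 it reads on the opposite strand.

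The ATF4 and CHOP branch did not move as one. Of 15 genes, 5 fell and 3 rose, with a median of -0.15. Ddit3, which encodes CHOP, lay at 3.53 to 8.94 CPM (median 5.75) in the 12 h libraries, against 14.1 to 52 CPM (median 33.4) in the 3 h libraries without overlap, a change of -2.56 ± 0.20 (adjusted p = 3.8e-11), most of it present by 6 h (-1.66 ± 0.18, adjusted p = 2.2e-06). Trib3, a pseudokinase induced by ATF4 and by fasting, lay higher at 4.77 to 17.1 CPM (median 8.09) in the 12 h libraries, against 2.31 to 7.16 CPM (median 3.89) in the 3 h libraries, a change of 1.21 ± 0.20 (adjusted p = 2.4e-05). Atf5 rose by 0.67 ± 0.13 (adjusted p = 0.00012), with a median of 388 CPM at 12 h and 235 CPM at 3 h.

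Among the pathway lists, the cytosolic heat shock chaperones had the lowest median at 12 h. Of 16 genes, 15 were lower at 12 h and 0 higher, with a median log2 fold change of -1.87, and Hspd1 alone did not pass. Hspa1b (chr17:34956436-34959238), an inducible HSP70, lay at 1.88 to 4.68 CPM (median 3.08) in the 12 h libraries, against 46.4 to 124 CPM (median 71.9) in the 3 h libraries, and the groups did not overlap. The change was -4.69 ± 0.28 (adjusted p = 4.0e-13), and -4.74 without BALB/c 3 h replicate 4. It was the largest fall among called genes of at least 5 CPM outside the marker lists. That ranking left out clone names and genes whose sign differed between the strains. Hspa1b and its neighbour Hspa1a are near-identical, so the split of reads between them is uncertain, and Hspa1a had a change of -4.52. Hspa1b was already lower at 6 h, at 9.27 to 32.9 CPM (median 23.6) (-2.01 ± 0.23, adjusted p = 5.4e-06).

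Hsph1, the HSP110 nucleotide exchange factor for HSP70, lay at 11.6 to 28 CPM (median 17.1) in the 12 h libraries, against 112 to 246 CPM (median 174) in the 3 h libraries, a change of -3.32 ± 0.16 (adjusted p = 2.7e-15). It remained high at 6 h, at 81.9 to 163 CPM (median 127), above the midpoint by 1.20 ± 0.12 (adjusted p = 1.6e-07). Hsp90aa1, the inducible HSP90, lay at 107 to 151 CPM (median 131) in the 12 h libraries, against 449 to 897 CPM (median 563) in the 3 h libraries, a change of -2.20 ± 0.12 (adjusted p = 3.9e-14) with no call between 6 h and 3 h (0.045 ± 0.11, adjusted p = 0.88). Dnaja1, a co-chaperone of HSP70, lay at 98.1 to 137 CPM (median 113) in the 12 h libraries, against 336 to 573 CPM (median 485) in the 3 h libraries, a change of -2.04 ± 0.12 (adjusted p = 1.1e-13). None of these 3 genes overlapped between times.

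Cirbp, an RNA-binding protein that rises when cells cool, moved the other way. It lay at 30.1 to 71.9 CPM (median 61.9) in the 12 h libraries, against 13.6 to 22.1 CPM (median 18.4) in the 3 h libraries, without overlap, a change of 1.67 ± 0.13 (adjusted p = 3.0e-11). Rbm3, another cold-inducible RNA binder, was lower, at a median of 29.3 CPM at 12 h and 36.9 CPM at 3 h, a change of -0.43 ± 0.13 (adjusted p = 0.012), so the cold-inducible list of 7 genes (2 higher, 1 lower, median -0.06) did not share a direction. Without BALB/c 3 h replicate 4 it had 1 higher and 1 lower (median -0.0059). The other gene called higher beside Cirbp (adjusted p = 0.047) lost its call in 18 of 29 fits that left out 1 library.

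The promoter of Hsph1 is shown because it holds both a heat shock element and an E-box. The window is chr5:149636287-149636586 in GRCm38.p6, minus strand. Capitals mark CACGTG at base 253 and, at base 287, a heat shock element, the letters heat shock factor binds. The element searched was GAA, TTC and GAA, or TTC, GAA and TTC, with 2 bases of any kind between each.
Hsph1: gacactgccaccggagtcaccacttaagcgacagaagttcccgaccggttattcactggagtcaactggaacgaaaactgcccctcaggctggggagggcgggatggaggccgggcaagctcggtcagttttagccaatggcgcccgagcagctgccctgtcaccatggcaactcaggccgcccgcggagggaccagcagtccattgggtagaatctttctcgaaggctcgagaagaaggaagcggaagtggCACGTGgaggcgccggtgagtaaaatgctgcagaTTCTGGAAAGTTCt
Heat shock elements were in a promoter of 4 of 13 genes of the chaperone list (30.8%) and of 63 of 10772 tested genes (0.585%). Among called genes they were in 17 of 1659 lower at 12 h (1.02%) and 9 of 1834 higher (0.491%). Among genes changed at least 2-fold they were in 3 of 372 lower (0.806%) and 3 of 376 higher (0.798%).

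**Figure D2:**
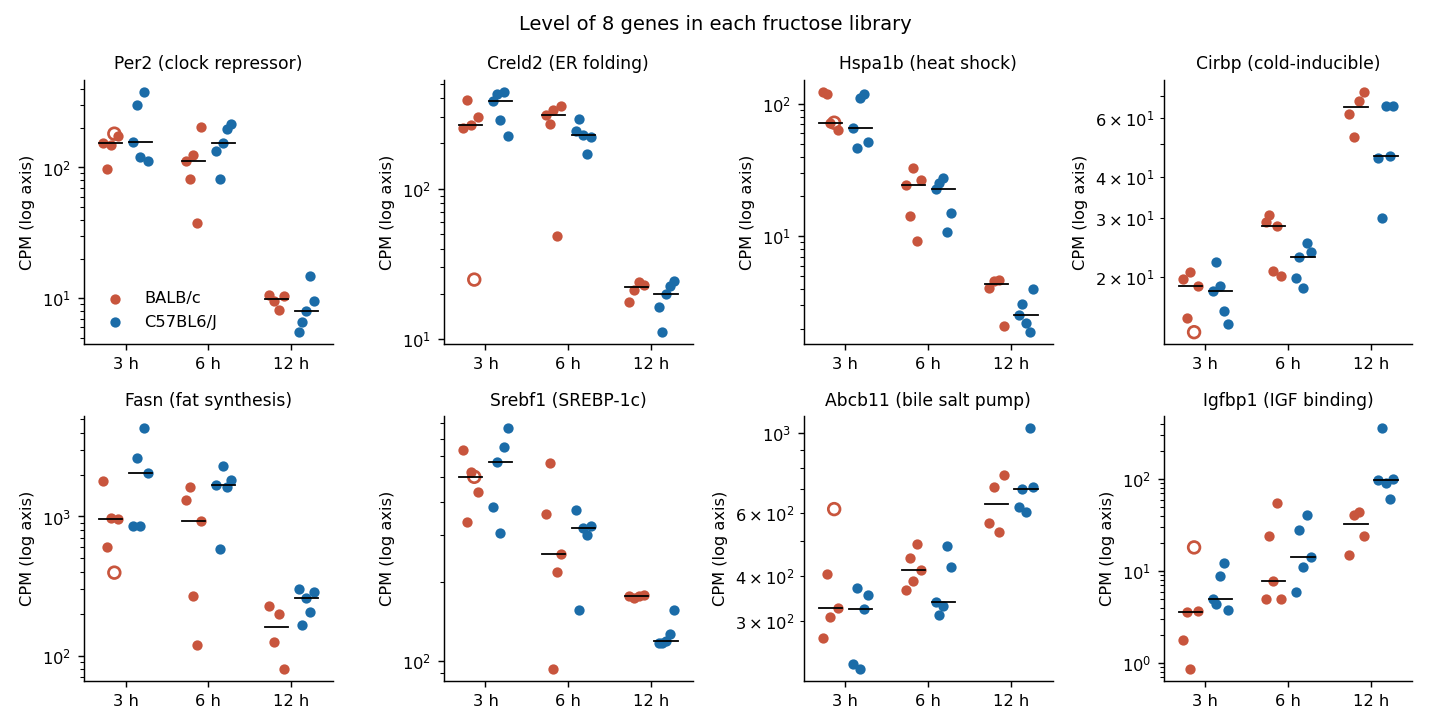
Level of 8 genes in each fructose library, in CPM on log axes, at 3, 6 and 12 h, by strain. Points are libraries, bars are medians and the open circle is BALB/c 3 h replicate 4. Per2, Hspa1b, Fasn and Srebf1 lie lower in every 12 h library than in any 3 h library, Cirbp higher, and Creld2 remains near its 3 h level at 6 h except in BALB/c replicate 4.

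Most genes that make fat fell, and most fructose-breakdown genes did not pass the test. Of 24 genes of fatty acid and triglyceride synthesis, 13 were lower and 2 higher at 12 h, with a median of -0.45. Acly, Acaca, Acacb, Fasn, Elovl6, Srebf1, Thrsp, Mid1ip1, Lpin1, Dgat2, Pnpla3, Acsl3 and Mlxipl fell, and Elovl5 and Scd1 rose. Fasn (chr11:120805940-120824178), fatty acid synthase, lay at 80.3 to 303 CPM (median 205) in the 12 h libraries, against 395 to 4289 CPM (median 968) in the 3 h libraries. Its groups did not overlap, and the change was -2.87 ± 0.42 (adjusted p = 5.2e-06), -2.98 without BALB/c 3 h replicate 4. At 6 h it was at 119 to 2297 CPM (median 1467), above the midpoint by 1.15 ± 0.32 (adjusted p = 0.019).

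Srebf1, the insulin-driven activator of these genes, lay at 117 to 178 CPM (median 157) in the 12 h libraries, against 305 to 765 CPM (median 511) in the 3 h libraries, a change of -1.78 ± 0.23 (adjusted p = 4.3e-07), part of which was present at 6 h (-0.79 ± 0.21, adjusted p = 0.024). Thrsp, a lipogenic protein that responds to carbohydrate and thyroid hormone, lay at 18.3 to 244 CPM (median 86.4) in the 12 h libraries, against 261 to 1924 CPM (median 642) in the 3 h libraries, a change of -3.05 ± 0.38 (adjusted p = 4.3e-07). At 6 h Thrsp lay at 314 to 2588 CPM (median 741) and stood above the midpoint by 1.74 ± 0.28 (adjusted p = 0.00025). Mid1ip1, its paralog, lay at 12.1 to 27.8 CPM (median 16.6) in the 12 h libraries, against 66 to 159 CPM (median 105) in the 3 h libraries, a change of -2.47 ± 0.24 (adjusted p = 5.1e-09). Fasn, Srebf1, Thrsp and Mid1ip1 showed no overlap between 12 h and 3 h.

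Scd1, the desaturase that makes oleate, went against the list, at 141 to 1979 CPM (median 851) in the 12 h libraries, against 51.6 to 1399 CPM (median 312) in the 3 h libraries, with wide overlap and a change of 1.39 ± 0.53 (adjusted p = 0.048). The call was lost when any of 17 single libraries was left out, BALB/c 3 h replicate 4 among them (1.27, adjusted p = 0.08). Pnpla3, a lipid droplet enzyme induced by SREBP-1c, had medians of 2.69, 8.33 and 1.55 CPM at 3, 6 and 12 h, with 6 h above the midpoint by 2.05 ± 0.37 (adjusted p = 0.0007).

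Of 10 genes of fructose uptake and breakdown, 3 were lower and 1 higher, with a median of 0.05. Fitted alone, C57BL6/J had 0 higher and 3 lower (median -0.12) and BALB/c 2 higher and 0 lower (median 0.35). The strain by time test called 0 of the 10. Khk lay at 245 to 1039 CPM (median 783) in the 12 h libraries, against 468 to 1134 CPM (median 686) in the 3 h libraries, and the test made no call (log2 0.13 ± 0.17, adjusted p = 0.62). Dak lay at 182 to 967 CPM (median 729) in the 12 h libraries, against 239 to 1329 CPM (median 769.9) in the 3 h libraries, a difference of -0.14 ± 0.26 (adjusted p = 0.74). For both enzymes the 12 h and 3 h libraries overlapped widely. The members that fell were Glyctk, glycerate kinase (-0.52 ± 0.094, adjusted p = 6.9e-05), Adh1, an alcohol dehydrogenase (-0.44 ± 0.11, adjusted p = 0.0035), and Sord, which makes fructose from sorbitol (-0.43 ± 0.11, adjusted p = 0.0036). The fructose transporter Slc2a5 rose, by 0.74.

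Of 19 genes of the ChREBP complex and its targets, 6 fell and 0 rose, with a median of -0.16 (-0.26 without BALB/c 3 h replicate 4). The share called was near the 30.9% called over all genes tested, where 16.3% were higher and 14.6% lower. Fitted alone, C57BL6/J had 0 higher and 5 lower (median -0.31) and BALB/c 1 higher and 1 lower (median 0.0024). The strain by time test called 0 of the 19. Mlxipl, ChREBP itself, lay at 275 to 818 CPM (median 461) in the 12 h libraries, against 322 to 1379 CPM (median 638) in the 3 h libraries, a change of -0.63 ± 0.20 (adjusted p = 0.017). Mlx lay at 15 to 22.8 CPM (median 19) in the 12 h libraries, against 25.6 to 36.1 CPM (median 28.5) in the 3 h libraries, without overlap, a change of -0.66 ± 0.084 (adjusted p = 3.4e-07). Txnip, an arrestin-like brake on glucose uptake, lay at 34.5 to 69.5 CPM (median 44.5) in the 12 h libraries, against 26.8 to 210.5 CPM (median 74.9) in the 3 h libraries, a change of -0.80 ± 0.23 (adjusted p = 0.0074). Klf10, a sugar-responsive repressor, was at a median of 12.4 CPM at 12 h and 34.9 CPM at 3 h, a change of -1.54 ± 0.34 (adjusted p = 0.00081).

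Pklr, liver pyruvate kinase and a classical target, lay at 44.1 to 287 CPM (median 124) in the 12 h libraries, against 23.9 to 452 CPM (median 179) in the 3 h libraries, and its difference of -0.41 ± 0.44 (adjusted p = 0.53) was not called. Fitted alone, BALB/c gave 0.47 (adjusted p = 0.72) and C57BL6/J -1.37 (adjusted p = 0.018), and the strain difference of the change gave 1.85 ± 0.80 (adjusted p = 0.82). Fgf21, a liver hormone that both fasting and fructose raise, lay at 0.802 to 7.31 CPM (median 3.49) in the 12 h libraries, against 0.329 to 49.4 CPM (median 7.64) in the 3 h libraries. Its 3 h libraries spread the most of these genes and hold both extremes, and the change was -1.79 ± 0.55 (adjusted p = 0.014). Rgs16, a G protein regulator in fasted liver, lay at 2.76 to 55.2 CPM (median 19.1) in the 12 h libraries, against 2.03 to 139 CPM (median 18) in the 3 h libraries, with no call (-0.55 ± 0.60, adjusted p = 0.53).

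Of the 21 genes of the glycolysis list, 4 fell and 2 rose, near the 30.9% called over all genes tested. Pfkfb3, an activator of glycolysis, fell (log2 -1.72 ± 0.24, adjusted p = 1.9e-06), with a median of 3.21 CPM at 12 h and 12.9 CPM at 3 h. Aldoa, the aldolase of most tissues and abundant in muscle, fell (log2 -0.72 ± 0.11, adjusted p = 8.1e-06), with a median of 148 CPM at 12 h and 264 CPM at 3 h.

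Several genes that insulin holds down were higher. Of 18 genes of gluconeogenesis and FoxO1 targets, 7 rose and 2 fell, with a median of 0.20, and without BALB/c 3 h replicate 4 the counts were 9 and 2. Fitted alone, C57BL6/J had 7 higher and 1 lower (median 0.30) and BALB/c 3 higher and 2 lower (median -0.0084). The strain by time test called 0 of the 18. Igfbp1 (chr11:7197782-7202546), a secreted IGF-binding protein under FoxO1, showed the largest rise in the same ranking of called genes of at least 5 CPM outside the marker lists. It lay at 14.8 to 355 CPM (median 61.3) in the 12 h libraries, against 0.867 to 18.1 CPM (median 4.05) in the 3 h libraries, and the highest 3 h value was that of BALB/c replicate 4. The change was 3.67 ± 0.63 (adjusted p = 5.9e-05), and 4.11 without that library, when the groups no longer overlapped. Igfbp1 was not called in BALB/c fitted alone. Irs2, an insulin receptor substrate, lay at 3.59 to 20.4 CPM (median 7.49) in the 12 h libraries, against 1.71 to 6.26 CPM (median 3.76) in the 3 h libraries, a change of 1.49 ± 0.29 (adjusted p = 0.00021), and was already raised at 6 h (1.09 ± 0.28, adjusted p = 0.019).

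Pck1, the enzyme that commits oxaloacetate to glucose synthesis, lay at 372 to 3477 CPM (median 1830.0) in the 12 h libraries, against 362 to 1929 CPM (median 599) in the 3 h libraries, a change of 1.07 ± 0.36 (adjusted p = 0.025). That call was lost without C57BL6/J 12 h replicate 2 (adjusted p = 0.061) or BALB/c 12 h replicate 2 (adjusted p = 0.051). BALB/c fitted alone did not call Pck1 either. G6pc, glucose-6-phosphatase, lay at 239 to 480.1 CPM (median 381) in the 12 h libraries, against 182 to 591 CPM (median 417) in the 3 h libraries, with no call (-0.045 ± 0.19, adjusted p = 0.89). Insr, the insulin receptor, rose by 0.48 ± 0.092 (adjusted p = 0.00013). Slc37a4, which carries glucose 6-phosphate into the ER, fell (log2 -0.67 ± 0.10, adjusted p = 7.1e-06). Of 14 glycogen genes 5 rose and 4 fell, among them Gys2, liver glycogen synthase (-0.68 ± 0.11, adjusted p = 1.5e-05), Phka2, a regulatory subunit of phosphorylase kinase (1.59 ± 0.18, adjusted p = 9.2e-08), and glycogenin Gyg (0.71 ± 0.12, adjusted p = 2.0e-05).

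Among bile acid genes more rose than fell. Of 17 genes of synthesis and transport, 8 rose and 1 fell, with a median of 0.32, and without BALB/c 3 h replicate 4 the counts were 8 and 0. Abcb11, the bile salt export pump, lay at 530.3 to 1031 CPM (median 700.3) in the 12 h libraries, against 220.3 to 614 CPM (median 326) in the 3 h libraries. The highest 3 h value was again BALB/c replicate 4, and the change was 1.04 ± 0.15 (adjusted p = 3.1e-06), or 1.15 without it. Abcb4, the phospholipid flippase of the canaliculus, lay at 171 to 295 CPM (median 232) in the 12 h libraries, against 115 to 179 CPM (median 142) in the 3 h libraries, a change of 0.72 ± 0.10 (adjusted p = 3.2e-06). Abcg8, a subunit of the sterol exporter, lay at 46 to 129 CPM (median 87.1) in the 12 h libraries, against 18.3 to 78.7 CPM (median 35.8) in the 3 h libraries, a change of 1.25 ± 0.23 (adjusted p = 9.1e-05), after a 6 h median of 20.8 CPM that was below the midpoint (log2 -1.04 ± 0.20, adjusted p = 0.0014). Cyp7a1, the rate-limiting enzyme of bile acid synthesis, had no call (0.32 ± 0.32, adjusted p = 0.48), with a median of 218 CPM at 12 h and 143 CPM at 3 h.

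Of 26 sterol synthesis and uptake genes, 6 fell and 2 rose, with a median of 0.02. The share called was near the 30.9% called over all genes tested. Insig1, the ER anchor of SREBP, fell (log2 -1.06 ± 0.27, adjusted p = 0.0028), with a median of 246 CPM at 12 h and 459 CPM at 3 h. The members did not move together, since Hmgcs1 and Mvk rose and Mvd and Lss fell.

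Few genes of fatty acid oxidation passed the test. Of 36 genes, 4 were higher and 3 lower at 12 h, with a median of -0.0042. That was a smaller share than the 30.9% called over all genes tested. Plin2, the coat protein of lipid droplets, lay at 339.8 to 647 CPM (median 401) in the 12 h libraries, against 155 to 328 CPM (median 236) in the 3 h libraries, without overlap, a change of 0.95 ± 0.13 (adjusted p = 9.5e-07). Cyp4a32, an omega-hydroxylase of a family under PPAR alpha whose members share sequence, lay at 44 to 781 CPM (median 60.7) in the 12 h libraries, against 7.27 to 104 CPM (median 30.8) in the 3 h libraries, a change of 2.25 ± 0.25 (adjusted p = 6.6e-08). Cidec, another droplet protein, fell (log2 -0.78 ± 0.17, adjusted p = 0.00048). Cpt1a, the gate of mitochondrial oxidation, had medians of 181, 104 and 217 CPM at 3, 6 and 12 h. At 6 h it was below the midpoint (log2 -0.92 ± 0.18, adjusted p = 0.0013), while 12 h against 3 h was not called (0.47 ± 0.20, adjusted p = 0.077). It was called without BALB/c 6 h replicate 4 (adjusted p = 0.035) or C57BL6/J 3 h replicate 3 (adjusted p = 0.032).

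Most genes that build ribosomes fell, while the ribosomal proteins, but for Rpl8, did not pass the test. Of 27 ribosome biogenesis genes, 18 were lower and 0 higher, with a median of -0.41, and of 20 cytosolic ribosomal protein genes 1 was lower. Nop2, a nucleolar rRNA methyltransferase, lay at 12.9 to 21.4 CPM (median 18.6) in the 12 h libraries, against 27.6 to 44.4 CPM (median 40.1) in the 3 h libraries, a change of -1.13 ± 0.11 (adjusted p = 3.3e-09). Rrp12, which exports pre-ribosomes, lay at 6.15 to 11.7 CPM (median 7.88) in the 12 h libraries, against 12.6 to 27.4 CPM (median 20.6) in the 3 h libraries, a change of -1.42 ± 0.14 (adjusted p = 3.9e-09). Wdr12, of the PeBoW complex, fell (log2 -0.92 ± 0.10, adjusted p = 2.0e-08). For Nop2 and Rrp12 the libraries did not overlap between times. The cytoskeleton list of 18 genes had 8 lower and 0 higher (median -0.32), but its median at 6 h against 3 h was 0.20, and 9 members were above the midpoint at 6 h. Tuba1c, an alpha tubulin with near-identical relatives, had medians of 140.1, 149 and 69 CPM at 3, 6 and 12 h. Tubb4b, a beta tubulin, had medians of 143, 160.5 and 101 CPM at 3, 6 and 12 h, and both were above the midpoint at 6 h, Tuba1c by 0.73 ± 0.10 (adjusted p = 3.1e-05) and Tubb4b by 0.52 ± 0.089 (adjusted p = 0.0003).

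**Figure D3:**
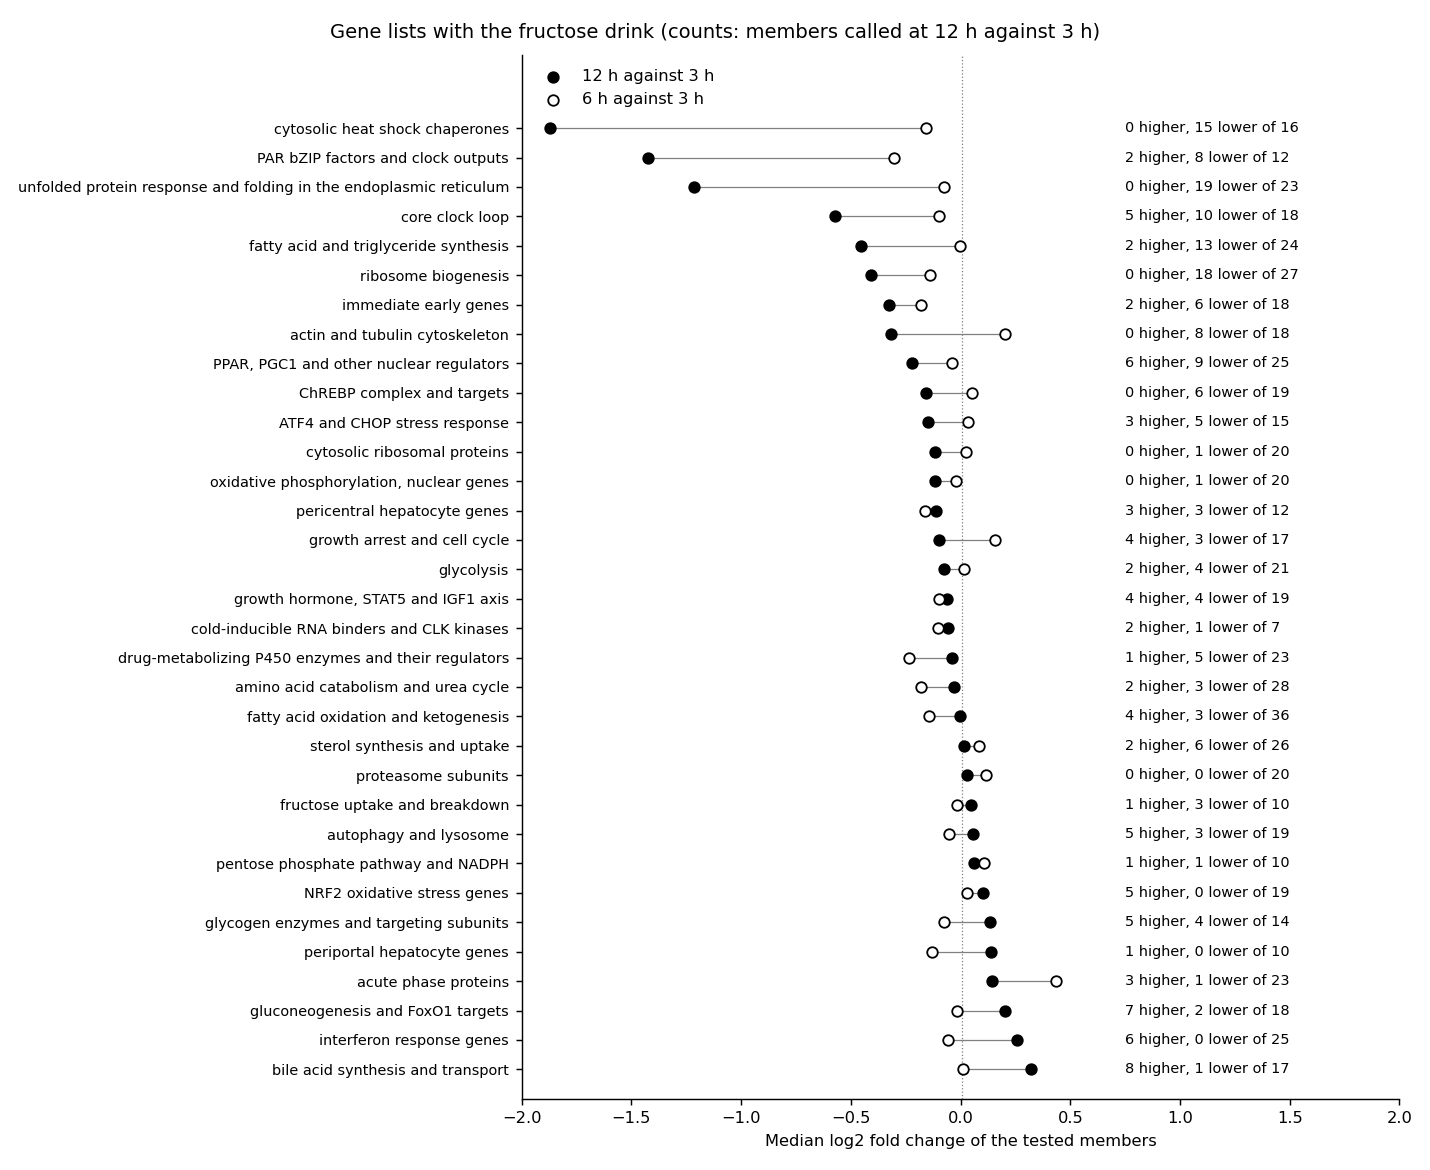
Median log2 fold change of the tested members of each pathway list, at 12 h against 3 h (filled) and 6 h against 3 h (open); the dotted line is the median of all genes tested at 12 h. The text on the right counts members called at 12 h against 3 h. The heat shock, clock output and ER folding medians are -1.87, -1.42 and -1.21 at 12 h, and -0.16, -0.30 and -0.075 at 6 h.

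Among the remaining lists, several moved in both directions or hardly at all. Drug-metabolizing P450 genes had 5 lower and 1 higher of 23. Cyp2a5, a rhythmic coumarin hydroxylase with close relatives, lay at 200.3 to 496 CPM (median 375) in the 12 h libraries, against 1222 to 2424 CPM (median 1758) in the 3 h libraries, without overlap, a change of -2.21 ± 0.15 (adjusted p = 3.5e-12). Alas1, the first enzyme of haem synthesis, fell (log2 -1.59 ± 0.37, adjusted p = 0.0013), with a median of 206 CPM at 12 h and 619 CPM at 3 h. Cyp3a25 rose by 0.96 ± 0.18 (adjusted p = 8.1e-05), with a median of 1712 CPM at 12 h and 878 CPM at 3 h.

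Acute phase proteins had 3 higher and 1 lower of 23. Hamp, the iron hormone hepcidin, was the one that fell, at 166 to 920.0 CPM (median 429) in the 12 h libraries, against 686 to 3352 CPM (median 1831) in the 3 h libraries, a change of -2.02 ± 0.27 (adjusted p = 9.9e-07), and Fgg, a fibrinogen chain, rose by 0.81 ± 0.23 (adjusted p = 0.0068). Of 25 interferon response genes 6 rose and 0 fell, with a median of 0.25, against 9 and 0 with a median of 0.36 without BALB/c 3 h replicate 4. Gbp7, an interferon-induced GTPase, lay at 8.4 to 18.6 CPM (median 10.8) in the 12 h libraries, against 3.68 to 7.57 CPM (median 6.42) in the 3 h libraries, without overlap, a change of 0.91 ± 0.14 (adjusted p = 9.4e-06), and Ifi47 rose by 0.63 ± 0.12 (adjusted p = 0.00015).

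Of 18 immediate early genes 6 fell and 2 rose. Egr1, an early growth response factor, was among the genes named for the largest rises, at 1.41 to 40.5 CPM (median 4.91) in the 12 h libraries, against 0.654 to 6.85 CPM (median 1.07) in the 3 h libraries, a change of 2.76 ± 0.55 (adjusted p = 0.00033), while Jund fell (log2 -0.86 ± 0.16, adjusted p = 7.5e-05) and Atf3 (log2 -1.62 ± 0.32, adjusted p = 0.0002). Growth arrest and cell cycle genes had 4 higher and 3 lower of 17. Cdkn1a, the inhibitor p21, lay at 19.1 to 83.4 CPM (median 31.6) in the 12 h libraries, against 1.48 to 39.1 CPM (median 5.39) in the 3 h libraries, a change of 2.17 ± 0.40 (adjusted p = 0.00014) that was largely present at 6 h (1.75 ± 0.38, adjusted p = 0.0062). Wee1, the clock-driven mitotic kinase, lay at 0.253 to 1.81 CPM (median 0.968) in the 12 h libraries, against 2.16 to 9.4 CPM (median 5.94) in the 3 h libraries, without overlap, a change of -2.52 ± 0.33 (adjusted p = 5.2e-07).

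Stat5b, which carries the growth hormone signal, lay at 64.9 to 98.1 CPM (median 79.2) in the 12 h libraries, against 38 to 56.2 CPM (median 42.2) in the 3 h libraries, without overlap, a change of 0.87 ± 0.11 (adjusted p = 2.0e-07), and its list had 4 higher and 4 lower of 19. Nuclear regulators had 6 higher and 9 lower of 25. Esrra, an orphan receptor of mitochondrial genes, lay at 38.2 to 55.7 CPM (median 43.9) in the 12 h libraries, against 56.8 to 98 CPM (median 69.5) in the 3 h libraries, without overlap, a change of -0.71 ± 0.10 (adjusted p = 2.9e-06). Fitted alone, amino acid catabolism had 7 higher and 0 lower in C57BL6/J and 0 higher and 2 lower in BALB/c. The strain by time test called 0 of its 28 genes. With both strains it had 2 higher and 3 lower of 28 (6 and 1 without BALB/c 3 h replicate 4), and autophagy 5 higher and 3 lower of 19. NRF2 genes had 5 higher and 0 lower of 19 (3 and 0 without that library). The pentose phosphate pathway had 1 higher and 1 lower of 10. Oxidative phosphorylation had 1 lower of 20 (0 without that library), and proteasome subunits had 0 calls of 20, with 1 at an unadjusted p under 0.05. Periportal genes had 1 higher of 10 and pericentral genes 3 higher and 3 lower of 12, so neither zone moved as a whole.

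The other genes named for the largest changes came from no list. Mt2, a metallothionein that binds zinc and responds to glucocorticoids, lay at 87.8 to 740.5 CPM (median 311) in the 12 h libraries, against 13.1 to 277 CPM (median 39.5) in the 3 h libraries, a change of 3.16 ± 0.86 (adjusted p = 0.006). Rnf125, a ubiquitin ligase, lay at 27.2 to 86.4 CPM (median 47.7) in the 12 h libraries, against 2.64 to 14 CPM (median 8.14) in the 3 h libraries, a change of 2.85 ± 0.26 (adjusted p = 1.5e-09). Spon2, a secreted matrix protein, lay at 11.8 to 39.7 CPM (median 18.2) in the 12 h libraries, against 1.25 to 8.72 CPM (median 2.93) in the 3 h libraries, a change of 2.53 ± 0.19 (adjusted p = 2.1e-11), and was already higher at 6 h (1.12 ± 0.18, adjusted p = 0.00034). The groups overlapped for Mt2 and did not for Rnf125 and Spon2.

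Lrit1, a leucine-rich repeat membrane protein, lay at 21.1 to 72.9 CPM (median 31.9) in the 12 h libraries, against 4.54 to 11.5 CPM (median 6.32) in the 3 h libraries, a change of 2.31 ± 0.22 (adjusted p = 4.0e-09). Camk1d, a calcium-dependent kinase, lay at 5.37 to 108 CPM (median 48.2) in the 12 h libraries, against 1.81 to 18.3 CPM (median 5.45) in the 3 h libraries, a change of 2.29 ± 0.22 (adjusted p = 5.1e-09). Serpina9, a serpin, fell to 0.145 to 3.85 CPM (median 0.668) in the 12 h libraries, against 3.95 to 34.1 CPM (median 11.6) in the 3 h libraries, a change of -3.53 ± 0.44 (adjusted p = 5.1e-07). The libraries overlapped for Camk1d, whose 12 h means were 7.40 CPM in BALB/c and 75.7 CPM in C57BL6/J, and did not for Lrit1 and Serpina9.

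The genes named for the largest distance of 6 h from the midpoint included these. H19, an imprinted long non-coding RNA, had medians of 2.94, 10.9 and 1.06 CPM at 3, 6 and 12 h, with 6 h above the midpoint by 2.20 ± 0.43 (adjusted p = 0.0015). Serpina4-ps1, a serpin pseudogene with expressed relatives, had medians of 342, 806 and 106 CPM at 3, 6 and 12 h, with 6 h above the midpoint by 1.91 ± 0.40 (adjusted p = 0.0026). Chrna4, a nicotinic receptor subunit, was above it by 2.45 ± 0.65 (adjusted p = 0.014), a call that was lost without C57BL6/J 6 h replicate 4 (1.75, adjusted p = 0.083). Syt1, a synaptotagmin, had medians of 4.34, 2.05 and 9.77 CPM at 3, 6 and 12 h, with 6 h below the midpoint (log2 -1.52 ± 0.21, adjusted p = 1.6e-05). Cyp3a59, a P450, was below it (log2 -1.24 ± 0.27, adjusted p = 0.0035).

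Skeletal muscle transcripts were lower at 12 h, with 3 h levels that differed widely between libraries. Of 73 muscle markers tested, 54 were lower and 3 higher at 12 h, with a median of -3.09, and the counts were the same without BALB/c 3 h replicate 4. Their sum was 119 to 1174 CPM at 3 h (median 227), 189 to 1391 CPM at 6 h (median 687) and 130 to 214 CPM at 12 h (median 179), and 1 of 74 markers was at 0 in every library of each time. At 3 h the high sums were those of BALB/c replicate 3 (1174 CPM), C57BL6/J replicate 4 (968 CPM) and C57BL6/J replicate 3 (515 CPM), with the other 7 libraries at 119 to 348 CPM. Among the genes at least 2-fold lower at 12 h, 52 of the 546 were muscle markers. Ckmt2, mitochondrial creatine kinase of muscle, was at 0 in 4 of 9 libraries at 12 h and in 2 of 10 at 3 h, and reached 0 to 0.115 CPM (median 0.0293) in the 12 h libraries, against 0 to 22.2 CPM (median 0.936) in the 3 h libraries. Tnnc1, a slow troponin C, fell without overlap, at 0.308 to 0.921 CPM (median 0.66) in the 12 h libraries, against 4.81 to 19 CPM (median 7.43) in the 3 h libraries, a change of -3.80 ± 0.26 (adjusted p = 3.5e-12). It did not follow the muscle sum. No 3 h library was below 4.81 CPM, also where Ckmt2 was at 0, and the 6 h libraries lay at 5.68 to 14.4 CPM (median 7.98). Whether Tnnc1 reads came from muscle was not tested. Csrp3, a muscle LIM protein, went the other way, at 23 to 44.7 CPM (median 28.5) in the 12 h libraries, against 5.4 to 19 CPM (median 9.56) in the 3 h libraries, a change of 1.60 ± 0.21 (adjusted p = 5.8e-07). The part of muscle RNA in other results was not tested.

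Haemoglobin and lymphocyte genes also moved. Of 6 erythroid markers 3 fell, among them Hba-a1 (-1.14 ± 0.27, adjusted p = 0.0016) and Hbb-bs (-0.93 ± 0.26, adjusted p = 0.0067), whose near-identical copies share reads. Their sum was 197 to 492 CPM at 12 h and 289 to 1493 CPM at 3 h, where BALB/c replicate 4 was the highest. Of 11 lymphocyte markers 4 rose, Cd79b of B cells by 1.33 ± 0.28 (adjusted p = 0.00035) at medians of 1.78 CPM at 12 h and 0.664 CPM at 3 h. Ighm, an immunoglobulin heavy chain with the most CPM of the list, not set per length, had medians of 5.75 CPM at 12 h and 13.2 CPM at 3 h and no call (-1.07 ± 0.44, adjusted p = 0.067). The sum of the list was 9.71 to 24.1 CPM at 12 h and 4.3 to 42.7 CPM at 3 h. Of 12 pancreas markers 4 fell and 1 rose, of 7 adipose markers 2 fell, and of 6 stomach and intestine markers 2 fell. The pancreas markers that fell had 3 h medians of 0.018 to 0.108 CPM. Most of them lost their call without C57BL6/J 3 h replicate 3. Each adipose marker that fell lost its call without C57BL6/J 3 h replicate 4. Kupffer, stellate, cholangiocyte, neutrophil and adrenal markers had 0 calls and 1 gene each at an unadjusted p under 0.05. Endothelial markers had 1 higher of 11 and hepatocyte markers 1 higher of 8. At 6 h the adrenal markers summed to 433 CPM in BALB/c replicate 2, against a median of 132 CPM over the 6 h libraries. The part of adrenal RNA in the 6 h results was not tested.

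**Figure D4:**
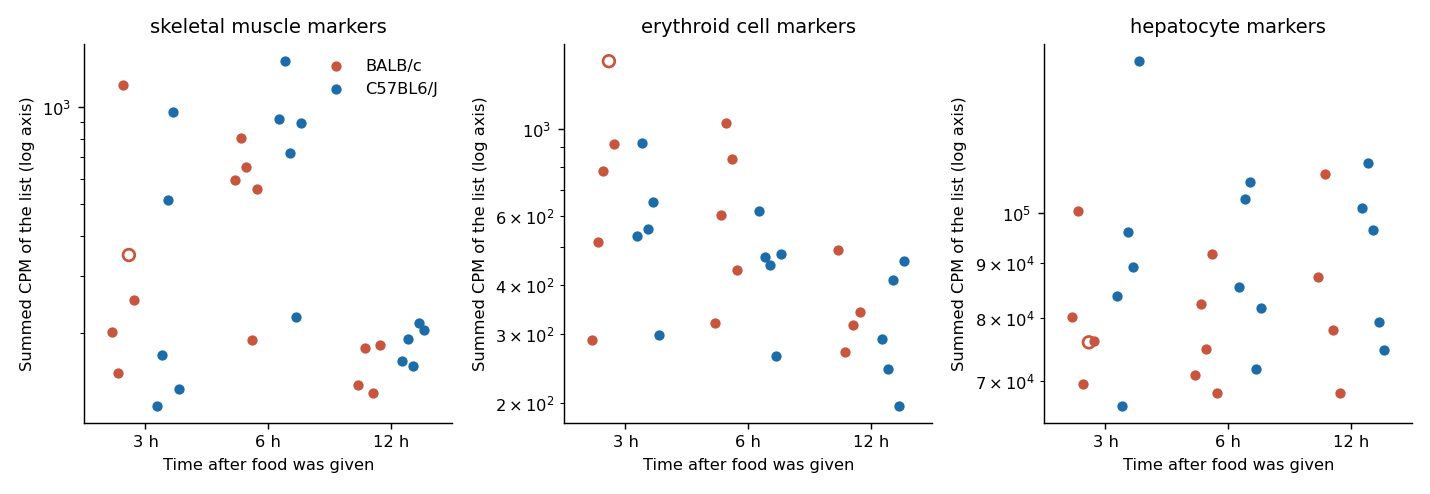
Summed CPM of skeletal muscle, erythroid and hepatocyte markers in each fructose library, on log axes, at 3, 6 and 12 h by strain. The open circle is BALB/c 3 h replicate 4. Muscle sums reach 1174 CPM at 3 h and 1391 CPM at 6 h, and lie between 130 and 214 CPM at 12 h.

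Few genes changed differently in the 2 strains by the test made. The difference of the 12 h against 3 h change, BALB/c minus C57BL6/J, was called for 7 genes (0.0455%), 5 higher (0.0325%) and 2 lower (0.013%), while 866 had an unadjusted p under 0.05. Fitted alone, BALB/c had 2035 calls at 12 h against 3 h and C57BL6/J 2797. Nr0b2, the bile acid-induced repressor SHP, had 15.1 to 33.1 CPM at 12 h and 22.8 to 52.2 CPM at 3 h in BALB/c. In C57BL6/J it had 23.7 to 57.2 CPM at 12 h and 2.64 to 9.98 CPM at 3 h. The strains did not overlap at 3 h, and the difference of changes was -3.15 ± 0.47 (adjusted p = 0.0021). Gas7, a cytoskeletal regulator of low level, had a difference of -2.69 ± 0.34 (adjusted p = 0.00012), and lay in C57BL6/J at 8.4 to 16.4 CPM at 12 h, against 1.21 to 2.99 CPM at 3 h.

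Bhlhe41, a clock repressor, differed by 2.88 ± 0.52 (adjusted p = 0.023), with 0.344 to 0.776 CPM at 12 h and 0.433 to 1.11 CPM at 3 h in BALB/c, and 0.0724 to 0.347 CPM at 12 h and 1.43 to 2.64 CPM at 3 h in C57BL6/J. Gas7 and Bhlhe41 lay under the minimum level for naming and are given because the list is short. The others were 2310022B05Rik (1.69 ± 0.30, adjusted p = 0.023), Csrnp1, an early response factor (2.10 ± 0.40, adjusted p = 0.032), Rrm2, a ribonucleotide reductase subunit (2.31 ± 0.45, adjusted p = 0.039), and Nox4, an oxidase that makes hydrogen peroxide (1.48 ± 0.29, adjusted p = 0.041). Without BALB/c 3 h replicate 4 there were 9 calls (0.0586%), 5 of them shared, and Rrm2 (adjusted p = 0.080) and Nox4 (adjusted p = 0.089) were not among them. Leaving out each of 29 libraries in turn lost 2310022B05Rik for 4 libraries, Csrnp1 for 13, Rrm2 for 17 and Nox4 for 19. Without C57BL6/J 12 h replicate 2, 3 or 4, 2 calls were left, both lower.

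How much of the change went with fructose was tested against water at the same times, in a model of all libraries of the study. The change differed from that with water for 328 of 16886 genes (1.94%), 157 higher (0.93%) and 171 lower (1.01%). Leaving out BALB/c 3 h replicate 4 gave 242 (1.43%), 229 of them shared. In this difference edgeR called 0 of 18 core clock genes (5 at an unadjusted p under 0.05, median -0.27), 0 of 23 ER folding genes (2 unadjusted, median 0.02) and 0 of 16 heat shock genes (0 unadjusted, median 0.04), with 2 lower of 12 clock outputs and 3 lower of 19 ChREBP genes. A missed call does not show that the drinks acted alike. The 3 comparisons with water, glucose and sucrose share the fructose libraries.

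Ulk1, the kinase that starts autophagy, lay with fructose at 64.7 to 87.5 CPM (median 74.6) at 12 h and 52.4 to 178 CPM (median 91.5) at 3 h. With water it lay at 62.3 to 150.2 CPM (median 80) at 12 h and 18.2 to 34.5 CPM (median 24.1) at 3 h. Its log2 change was thus -0.30 ± 0.19 with fructose and 1.75 ± 0.19 with water, a difference of -2.05 ± 0.26 (adjusted p = 7.1e-08). Fbxl20, an F-box protein, changed by 0.90 ± 0.15 with fructose and 2.48 ± 0.15 with water, a difference of -1.58 ± 0.21 (adjusted p = 1.1e-07). The levels of Ulk1 at 12 h overlapped between the drinks, and those at 3 h were higher with fructose in every library.

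Rbm33, an RNA-binding protein, changed by -0.034 ± 0.13 with fructose and 1.09 ± 0.13 with water (difference -1.12 ± 0.18, adjusted p = 3.3e-05). Cdk19, a Mediator kinase, changed by 0.10 ± 0.13 with fructose and 1.20 ± 0.13 with water (difference -1.09 ± 0.18, adjusted p = 4.0e-05). Fam46a, a poly(A) polymerase relative, changed by -1.39 ± 0.17 with fructose and 0.065 ± 0.16 with water (difference -1.45 ± 0.23, adjusted p = 3.9e-05). In all of these genes the change with fructose was the lower, and all 5 calls held without BALB/c 3 h replicate 4.

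Among genes of the pathway lists, Rgs16 showed the largest of the differences given here. It lay with fructose at 2.8 to 55.7 CPM (median 19.4) at 12 h and 2.04 to 143 CPM (median 18) at 3 h. With water it lay at 3.68 to 486 CPM (median 27.8) at 12 h and 1.09 to 4.89 CPM (median 2.45) at 3 h, so the changes were -0.52 ± 0.56 with fructose and 4.41 ± 0.64 with water, a difference of -4.93 ± 0.85 (adjusted p = 0.00011). Lpin1, a phosphatidate phosphatase and co-activator raised by fasting, changed by -1.31 ± 0.41 with fructose and 2.00 ± 0.40 with water (difference -3.31 ± 0.58, adjusted p = 0.00013). Txnip changed by -0.80 ± 0.28 with fructose and 1.07 ± 0.27 with water (difference -1.87 ± 0.39, adjusted p = 0.0024). Tef changed by -1.73 ± 0.17 with fructose and -0.92 ± 0.16 with water (difference -0.81 ± 0.23, adjusted p = 0.042), and Plin2 by 0.91 ± 0.19 with fructose and -0.012 ± 0.19 with water (difference 0.92 ± 0.27, adjusted p = 0.045). The last 2 calls were lost without BALB/c 3 h replicate 4 (adjusted p = 0.12 for Tef and 0.065 for Plin2).

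**Figure D5:**
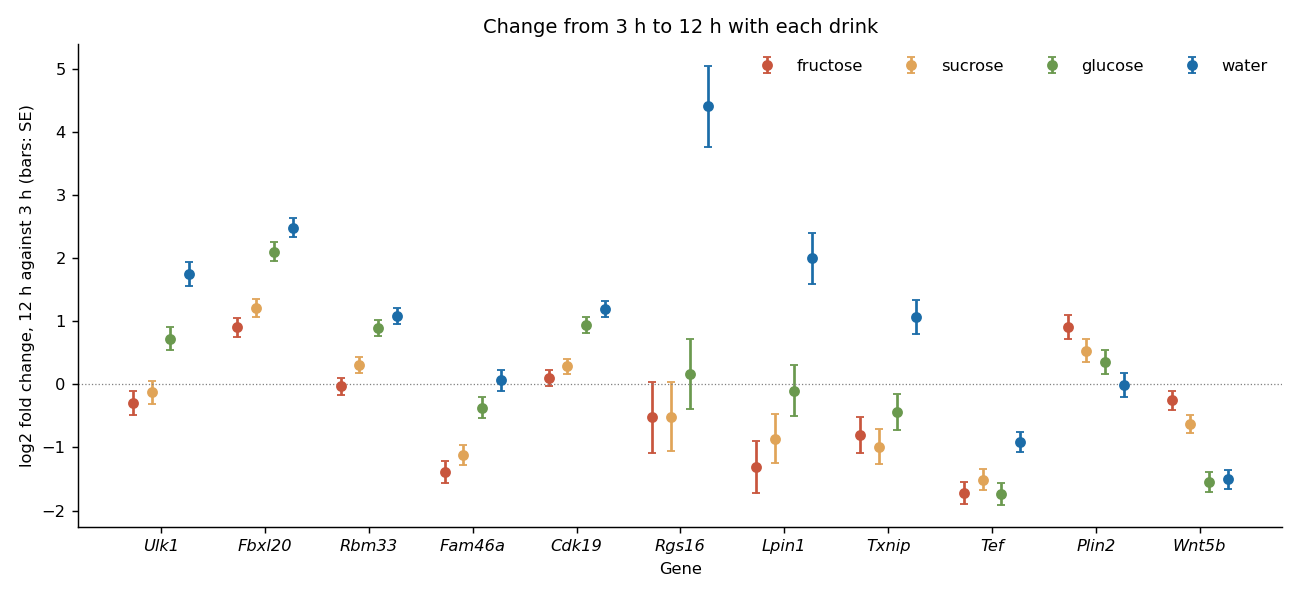
Log2 fold change from 3 h to 12 h of 11 genes with fructose, sucrose, glucose and water, from the model of all libraries; points are estimates averaged over the strains and bars are SE. Rgs16 lies at -0.52 with fructose and 4.41 with water, and Fbxl20 at 0.90 with fructose and 2.48 with water.

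Against glucose the change differed for 14 genes (0.0829%), 6 higher (0.0355%) and 8 lower (0.0474%), and for 7 (0.0414%) without BALB/c 3 h replicate 4, 5 of them shared. Wnt5b, a secreted Wnt ligand, changed by -0.25 ± 0.15 with fructose, -1.55 ± 0.16 with glucose and -1.51 ± 0.15 with water, a difference from glucose of 1.29 ± 0.22 (adjusted p = 0.00042). Fbxl20 (-1.20 ± 0.21, adjusted p = 0.00083), Rbm33 (-0.92 ± 0.18, adjusted p = 0.0088), Cdk19 (-0.85 ± 0.18, adjusted p = 0.027) and the potassium channel gene Kcnn1 (0.83 ± 0.18, adjusted p = 0.027) also differed from glucose. The Cdk19 call was lost without BALB/c 3 h replicate 4 (-0.81, adjusted p = 0.051). Against sucrose, whose molecule holds both glucose and fructose, edgeR called 0 genes (0%), with 316 at an unadjusted p under 0.05, and DESeq2 called 4.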

How the data were processed

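Whole-liver RNA was sequenced in the libraries of 4 drinks, of which the 29 fructose libraries carry the results and the others the drink comparisons. The authors deposited 1 table of raw read counts for 35275 genes, 8695 of them without a read. Per the submitters' processing notes, reads went through CASAVA, STAR 2.5 and HTSeq 0.6.1 on mm10 (GRCm38), with DESeq2 named as well. Whether counting used strand is not stated there, and reads of overlapping or antisense genes may be mixed. Per the labels' protocols, libraries were made with a NEBNext kit from about 5 mg of frozen powder and sequenced as 150 bp pairs.

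Totals were 18541545 to 43118895 counts. Genes were filtered with filterByExpr (minimum count 10), scaled by TMM and tested in edgeR 4.0.16 (R 4.3.3) with robust quasi-likelihood fits of time plus strain. Strain by time was tested as an interaction, and drinks in a model with a mean for each of 26 groups. P-values were adjusted over all genes tested by Benjamini and Hochberg, with a threshold of 0.05. Log2 fold changes are given ± SE. Values per library are CPM on TMM-scaled library sizes, which are not set per length, so levels are compared within a gene only. DESeq2 1.42.0, other scaling, no filter, the replicate number, a name suffix carried by 8 of the 29 fructose libraries and left-out libraries were alternatives. The test was also run on simulated data with known changes. Over 56 pairs of libraries within groups, chi-square over degrees of freedom was at least 17.6, far above sampling noise, so none was counted as a duplicate.

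Genes named were a listed panel, the called genes of at least 5 CPM with the largest changes outside the marker lists and of the same sign in both strains, up to 3 called members a list by p, and the first 5 of each difference. Genes with clone names (Gm and a number, Rik or an accession) were left out of the ranking of largest changes. Bhlhe41, Gas7, Hspa1a, Slc2a5, Lpin1, Ighm and members named without values were added after their values were seen. The genes and lists were chosen with earlier results of these data known. Some genes that this rule gave are not reported here. Promoters of 117 of the 151 genes it gave matched RefSeq windows of GRCm38.p6, searched on both strands. Windows not 300 bases long and those of a chromosome left out of the search were not used. An unmatched gene may thus still have a RefSeq promoter. Counts of genes that share sequence (Hspa1b, haemoglobins, tubulins, Cyp and Serpina families) are uncertain.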

Additional observations from a re-analysis of the deposited data

Results flagged for a closer look

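Within each strain and time, 52 of 702 sets of values had a library whose gap to the nearest other, over the range of the set on the log2 scale, passed Dixon's 95% limit. Of these sets, 678 were the 113 genes named in the text by strain and time. Chance passes that limit in about 1 in 20 sets. The pattern of libraries was uneven, with 11 such values in BALB/c 6 h replicate 4, 7 in BALB/c 3 h replicate 4, 6 in C57BL6/J 12 h replicate 2 and 5 in C57BL6/J 12 h replicate 1. The cause was not tested.

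BALB/c 6 h replicate 4 stood apart from the other BALB/c 6 h libraries, with the range of the other libraries of the group in brackets. On the feeding scale of the water libraries it lay at 0.416, against 0.79 to 0.831 in the others of its group. Its low values were Per1 23.1 CPM (40.5 to 48.5 CPM), Arntl 15.1 CPM (25.3 to 29.1 CPM), Creld2 48.7 CPM (268 to 353 CPM) and Hspa5 377 CPM (1728 to 2089 CPM). It was also low in Rrm2 0.405 CPM (1.05 to 1.42 CPM), Ckmt2 0 CPM (7.16 to 8.95 CPM) and summed skeletal muscle markers 189 CPM (557 to 804 CPM). Its high values were Fgg 7597 CPM (1972 to 2357 CPM), Stat5b 84.4 CPM (47.2 to 53.1 CPM) and Mt2 4705 CPM (50.7 to 137 CPM).

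BALB/c 3 h replicate 4 stood apart from the other BALB/c 3 h libraries. On the feeding scale of the water libraries it lay at 0.452, against 0.748 to 0.857 in the others of its group. Its low values were Creld2 24.9 CPM (252 to 387 CPM), Hspa5 357 CPM (1551 to 2812 CPM) and Manf 80.9 CPM (343 to 487 CPM). It was also low in Tuba1c 124 CPM (156 to 168 CPM). Its high values were Dbp 10.5 CPM (1.43 to 2.24 CPM) and Phka2 23.7 CPM (9.51 to 12.2 CPM).

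C57BL6/J 12 h replicate 2 stood apart from the other C57BL6/J 12 h libraries. Its low values were Khk 245 CPM (780.2 to 1039 CPM) and Dak 182 CPM (656 to 786 CPM). Its high values were Nampt 56.8 CPM (37.2 to 41.7 CPM), Cpt1a 434 CPM (173 to 217 CPM), Igfbp1 355 CPM (61.3 to 101 CPM) and Atf3 2.99 CPM (0.941 to 1.25 CPM). C57BL6/J 12 h replicate 1 stood apart in other genes. Its low values were Tef 27.8 CPM (46.2 to 50.8 CPM), Trib3 4.77 CPM (7.17 to 8.1 CPM) and Aldoa 113 CPM (142 to 154 CPM). Its high values were Nox4 41.6 CPM (27.7 to 30.7 CPM) and Gas7 16.4 CPM (8.4 to 8.9 CPM).

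The remaining 23 such values were spread over other libraries, again with the range of the others of the group in brackets. BALB/c 12 h replicate 1 had Per1 4.22 CPM (21.8 to 26 CPM), Txnip 55.1 CPM (40.2 to 42 CPM) and Slc37a4 138 CPM (172 to 177 CPM). BALB/c 12 h replicate 5 had Pklr 86 CPM (242 to 287 CPM) and Lrit1 33.6 CPM (21.1 to 22.7 CPM). BALB/c 3 h replicate 2 had Gbp7 3.68 CPM (6.07 to 6.98 CPM). BALB/c 6 h replicate 2 had Gyg 9.64 CPM (7.21 to 7.79 CPM) and Esrra 42.4 CPM (54.4 to 60 CPM). BALB/c 6 h replicate 3 had Hsp90aa1 811 CPM (567 to 626 CPM). BALB/c 6 h replicate 5 had H19 5.05 CPM (10.6 to 13.4 CPM). C57BL6/J 12 h replicate 4 had Syvn1 101 CPM (46.5 to 56.8 CPM). C57BL6/J 12 h replicate 5 had Srebf1 157 CPM (117 to 127 CPM). C57BL6/J 3 h replicate 4 had Cdk19 13.8 CPM (7.71 to 8.74 CPM). C57BL6/J 3 h replicate 5 had Insr 136 CPM (86.1 to 96.1 CPM) and Camk1d 18.3 CPM (7.85 to 9.59 CPM). C57BL6/J 6 h replicate 2 had Fasn 581 CPM (1622 to 2297 CPM), Srebf1 156 CPM (302 to 374 CPM) and 2310022B05Rik 17 CPM (22.9 to 24.7 CPM). C57BL6/J 6 h replicate 3 had Khk 1058 CPM (791 to 831 CPM) and Wdr12 29.5 CPM (23.5 to 24.6 CPM). C57BL6/J 6 h replicate 4 had Lrit1 15.7 CPM (6.71 to 7.8 CPM) and Rrm2 7.71 CPM (12.6 to 14.6 CPM). C57BL6/J 6 h replicate 5 had Camk1d 34.1 CPM (22.5 to 24.7 CPM).

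The change from 3 h to 12 h differed between the strains, by the interaction term with Benjamini-Hochberg adjustment in edgeR, for Nr0b2 (-3.15), 2310022B05Rik (1.69), Csrnp1 (2.10), Rrm2 (2.31), Nox4 (1.48), Bhlhe41 (2.88) and Gas7 (-2.69), given as BALB/c minus C57BL6/J on the log2 scale. It differed between fructose and water, among the genes named, for Tef (-0.81), Txnip (-1.87), Rgs16 (-4.93), Plin2 (0.92), Lpin1 (-3.31), Ulk1 (-2.05), Fbxl20 (-1.58), Rbm33 (-1.12), Fam46a (-1.45), Cdk19 (-1.09) and Wnt5b (1.25). It differed between fructose and glucose for Fbxl20 (-1.20), Rbm33 (-0.92), Fam46a (-1.02), Cdk19 (-0.85), Wnt5b (1.29) and Kcnn1 (0.83). Without BALB/c 3 h replicate 4, Rrm2 and Nox4 between strains, Tef and Plin2 against water, and Fam46a and Cdk19 against glucose were no longer called. These comparisons share the fructose libraries.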

How the results depend on the processing

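The contrast of 12 h with 3 h kept its count within 1.5 times of 4758 under DESeq2, without the low-count filter, with RLE scaling, the name suffix as covariate, the libraries without the suffix and the 19 libraries alone. Of the 119 named genes called in it, 71 were called in every setting and 0 turned direction. For the midpoint 3 of 10 named genes were called in every setting, and between strains 0 of 5. Against water it was 5 of 5 and against glucose 0 of 5. Each strain alone gave fewer calls: 2035 in BALB/c and 2797 in C57BL6/J at 12 h against 3 h, 38 in BALB/c and 153 in C57BL6/J at 6 h against 3 h, 1451 in BALB/c and 1981 in C57BL6/J at 12 h against 6 h, and 95 in BALB/c and 436 in C57BL6/J at 6 h against the midpoint. These fits hold fewer samples. The libraries without the suffix gave 193 calls at 6 h against 3 h, 506 at the midpoint, 1 between strains, 73 against water and 1 against glucose. DESeq2 called 27 genes between strains, 524 against water, 56 against glucose and 4 against sucrose. Without the filter 213 were called against water and 9 against glucose, and with the suffix as covariate 518 against water and 29 against glucose. The place of the C57BL6/J 6 h libraries moved to 0.149 over genes lower at 12 h, and without BALB/c 3 h replicate 4 the places were 0.300 in BALB/c and 0.247 in C57BL6/J. The cause of these shifts was not tested.

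Leaving out 1 replicate number or 1 library at a time gave 3464 to 5046 calls at 12 h against 3 h, 381 to 1059 at 6 h against 3 h, 2606 to 4293 at 12 h against 6 h, 697 to 2006 at the midpoint and 2 to 11 between strains. For the drink differences, leaving out each replicate number or BALB/c 3 h replicate 4 gave 90 to 255 against water, 2 to 11 against glucose and 0 against sucrose, and other single libraries were not left out. Without BALB/c replicate 4 at 3 h and 6 h there were 5143 calls at 12 h against 3 h, 1095 at 6 h against 3 h, 4287 at 12 h against 6 h, 1995 at the midpoint and 14 between strains, an alternative chosen after seeing the data.

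The labels tie same-numbered libraries to no shared animal or day. Deviations correlated over 0.1 in 46 of 70 same-numbered pairs (-0.30 to 0.38, median 0.14), so not in all, against 56 of 280 pairs of different numbers (median -0.041), and 20 of 29 libraries correlated best with their own number, a hint from the data and not the design. With the replicate block there were 5294 calls at 12 h against 3 h, 1294 at 6 h against 3 h, 4428 at 12 h against 6 h, 2102 at the midpoint, 11 between strains, 475 against water, 23 against glucose and 0 against sucrose.

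The values that turned sign belonged to genes not called at 12 h against 3 h. In BALB/c alone they were Pklr (0.47, against -1.37 in C57BL6/J alone), Dak (0.39) and Rgs16 (0.30), and in C57BL6/J alone Khk (-0.094) and G6pc (0.013). With replicates or libraries left out, Dak ranged over -0.26 to 0.0086 and G6pc over -0.19 to 0.11. G6pc gave 0.087 in the libraries without the suffix. Dak turned without C57BL6/J 12 h replicate 2, and G6pc without replicate 5, BALB/c 12 h replicate 5 (0.028) or C57BL6/J 3 h replicate 3 (0.045). At this depth, genes of a few CPM and the drink and strain differences have the widest errors.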
